A study of Caenorhabditis elegans with 21 samples.

Results

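The genes described here build, sort and finally fuse the organelles of the Caenorhabditis elegans spermatid. They are 7 named genes, spe-4, spe-5, spe-10, spe-15, spe-26, spe-39 and fer-1, out of 21035 features in the mRNA table. They were chosen by name, as genes of the membranous organelle and the fibrous body, and were followed through 15 mRNA libraries and, under the same sequence names, 6 small RNA libraries. The mRNA table held 6 of the 7 under these names. The sequence name of spe-5, Y110A7A.12, was listed there under its older name, tag-300, and was matched through the RefSeq locus tag. All 7 were listed in the small RNA exon table.

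Spermatids of this worm have no acrosome. During spermatogenesis the major sperm proteins are packed into fibrous bodies, each wrapped by a membranous organelle that derives from the Golgi. These complexes move into the budding spermatids, while unneeded contents are left in a residual body. When the sperm is activated, the membranous organelles fuse with the cell membrane and release their contents. Spermatids make little or no new RNA, so the mRNAs found in them were made earlier, in spermatocytes.

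The study crossed mothers labelled fem-1(hc17ts)/TX189(OMA-1::GFP) with males of the Hawaiian strain CB4856 to look for paternal RNA in the zygote, and grew all material at 24 C. The fem-1(hc17ts) allele is temperature-sensitive and lowers or removes sperm production at the restrictive temperature. Groups with 3 mRNA libraries each were hybrid 1-cell embryos of that cross after poly(A) selection, the same kind of embryos after RiboMinus depletion of rRNA, whole CB4856 worms, and whole worms of the maternal strain, both worm groups after poly(A) selection. Single poly(A) libraries came from sperm of fog-2(q71) males, CB4856 sperm of high purity treated with pronase, and CB4856 sperm of low purity. Single small RNA libraries came from fog-2(q71) sperm, hybrid embryos of the same cross, embryos labelled TX189(OMA-1::GFP), N2 oocytes, CB4856 worms and maternal-strain worms; the title of the last names N2, its strain field the maternal strain. Embryos were sorted by flow cytometry and oocytes were picked by hand. The labels give no sex for the worms; the design text names Hawaiian males as the paternal side.

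Values are in RPKM, reads scaled to the length of a gene and to the mapped reads of a library, which allows levels of different genes to be compared. Whole reads could be recovered for the replicated groups. They came to 74.1 to 103 M in the poly(A) embryo libraries, 3.63 to 11.3 M in the RiboMinus embryo libraries, 18.6 to 84.1 M in the CB4856 worm libraries and 17.1 to 73.4 M in the maternal-strain worm libraries. The depth of the sperm libraries is unknown. Replicates 1 and 2 of every group differed by no more than the sampling of read pairs and were counted as 1 sample, which gives n = 2 samples a group. In bulk RNA of this kind, fewer cells of a type and less RNA per cell cannot be told apart. The 14 sperm markers, among them major sperm protein genes, summed to 0.719 to 2.00 RPKM in poly(A) embryos and 0 to 2.89 RPKM in RiboMinus embryos. Their sum was 2555 to 2598 RPKM in CB4856 worms and 16.9 to 17.9 RPKM in maternal-strain worms. In sperm it reached 14158 RPKM in the fog-2 library, 37476 RPKM in the high-purity library and 13478 RPKM in the low-purity library. All 12 markers of oocytes and the female germline were also above 0 in the sperm libraries, with sums of 1051 RPKM in fog-2, 1452 RPKM in high-purity and 1799 RPKM in low-purity sperm. The 6 markers of cuticle and hypodermis summed to 1571 RPKM in fog-2, 2588 RPKM in high-purity and 3947 RPKM in low-purity sperm. The part of other cells in the sperm levels of the organelle genes was not tested.

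The genes fell into 2 patterns. The mRNAs of spe-4, spe-10, spe-15, spe-26 and fer-1 were high in sperm, intermediate in CB4856 worms, and low in maternal-strain worms and in embryos. The mRNAs of spe-5 and spe-39 were present in every library at 10 RPKM or more, embryos included. The plot of levels by library shows both.

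**Figure D1:**
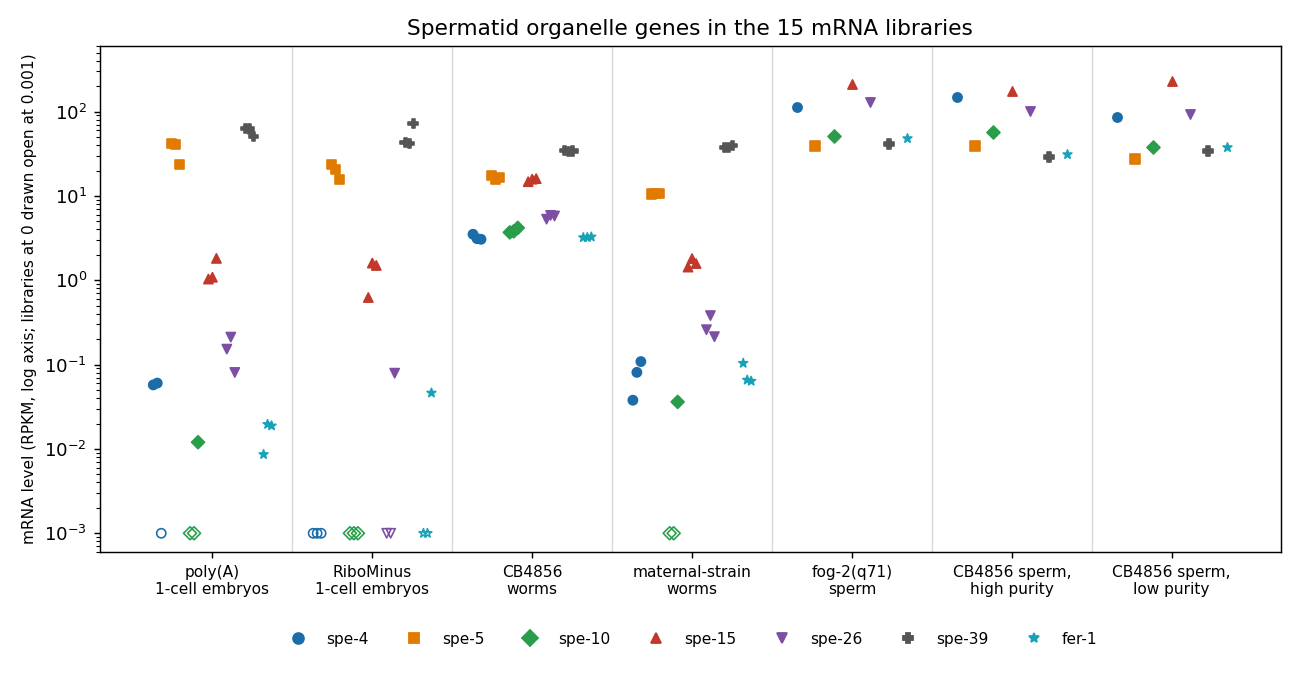
mRNA level in RPKM, on a log axis, of the 7 organelle genes in each of the 15 mRNA libraries, grouped by condition; each point is 1 library, and libraries at 0 are drawn as open points at 0.001. The points of spe-39 lie between 28.8 and 71.9 RPKM in all libraries, while spe-4 is at 0.109 RPKM or less in embryos and maternal-strain worms and at 85.2 to 151 RPKM in sperm.

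The gene spe-4 encodes a presenilin-family membrane protein of the fibrous body and membranous organelle. Its level was 0.0574, 0.0603 and 0 RPKM in the poly(A) embryo libraries (10, 10 and 0 reads) and 0 in all 3 RiboMinus libraries. It was 3.51, 3.11 and 3.06 RPKM in CB4856 worms, against 0.0378, 0.0809 and 0.109 RPKM in maternal-strain worms. The groups of worms did not overlap, and 2 of the 3 poly(A) embryo libraries lay among the maternal-strain worms. In sperm spe-4 stood at 112 RPKM in the fog-2 library, 151 RPKM in the high-purity library and 85.2 RPKM in the low-purity library. These levels were above those of 94.5%, 95.2% and 92.7% of all features. For RiboMinus embryos the shallow depth sets the limit: 3 read pairs would have been 0.840, 0.844 and 0.277 RPKM.

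The palmitoyltransferase gene spe-10 encodes an enzyme of the DHHC family that keeps fibrous bodies and membranous organelles together until budding. It was the gene with the least signal in embryos, at 0, 0 and 0.0120 RPKM after poly(A) selection, which is 2 reads in all, and at 0 in the RiboMinus libraries. It had 3.69, 3.8 and 4.18 RPKM in CB4856 worms, against 0, 0 and 0.0361 RPKM in maternal-strain worms, where 6 reads were seen. The fog-2, high-purity and low-purity sperm libraries held 51.3, 57.9 and 37.8 RPKM.

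In contrast to spe-10, spe-15 never reached 0. It encodes a class VI myosin needed for the uneven division of contents between spermatid and residual body. It was the most abundant of the 7 in all 3 sperm libraries, with 213 RPKM in fog-2 sperm, 176 RPKM in high-purity sperm and 229 RPKM in low-purity sperm. Poly(A) embryos had 1.03, 1.09 and 1.82 RPKM, from 444, 444 and 951 reads, and RiboMinus embryos had 0.624, 1.6 and 1.5 RPKM. CB4856 worms had 14.7, 15.8 and 16.03 RPKM, against 1.43, 1.80 and 1.58 RPKM in maternal-strain worms. The ranges of both embryo groups and of maternal-strain worms overlapped.

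The kelch-repeat gene spe-26, needed for spermatocytes to divide their contents, had 0.153, 0.212 and 0.0807 RPKM in poly(A) embryos (31, 41 and 20 reads) and 0, 0 and 0.0791 RPKM in RiboMinus embryos. It had 5.30, 5.88 and 5.78 RPKM in CB4856 worms, against 0.259, 0.381 and 0.214 RPKM in maternal-strain worms. Its sperm levels were 131, 102 and 92.9 RPKM in the fog-2, high-purity and low-purity libraries. The poly(A) embryo libraries lay below all 3 maternal-strain libraries, on counts of 41 reads or fewer. Counting intervals overlapped, at 0.130 to 0.325 RPKM in poly(A) replicate 2 and 0.141 to 0.313 RPKM in maternal-strain replicate 3. In RiboMinus embryos 3 read pairs would have been 0.719, 0.723 and 0.237 RPKM, so that depth cannot place them below maternal-strain worms.

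The last step belongs to fer-1, the founding gene of the ferlin family, whose protein acts when membranous organelles fuse with the cell membrane. It had 0.00861, 0.0196 and 0.0188 RPKM in poly(A) embryos, from 6, 13 and 16 reads, and 0, 0 and 0.0461 RPKM in RiboMinus embryos. CB4856 worms had 3.21, 3.21 and 3.27 RPKM, against 0.104, 0.0657 and 0.0637 RPKM in maternal-strain worms. With 47.9, 31.4 and 38.5 RPKM in fog-2, high-purity and low-purity sperm, fer-1 was the least abundant in sperm of the 5 genes with this pattern, except in the low-purity library, where spe-10 was at 37.8 RPKM.

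Both remaining genes encode parts of machinery that other cells use too. The gene spe-5 encodes a B subunit of the V-ATPase, the proton pump that acidifies organelles, and its paralog is vha-12. Its level was 41.6, 40.6 and 23.3 RPKM in poly(A) embryos and 23.4, 20.6 and 15.7 RPKM in RiboMinus embryos. It was 17.4, 15.8 and 16.6 RPKM in CB4856 worms, against 10.504, 10.6 and 10.6 RPKM in maternal-strain worms. The CB4856 worms were higher in each library, and poly(A) replicate 3 stood below replicates 1 and 2. Sperm held 39.1 RPKM in the fog-2 library, 38.9 RPKM in the high-purity library and 27.1 RPKM in the low-purity library.

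The trafficking gene spe-39 encodes a partner of the VPS33B protein that is needed to form membranous organelles and also acts in lysosomal delivery elsewhere in the worm. It was the highest of the 7 in embryos and in both worm groups. Poly(A) embryos had 63.6, 62.1 and 50.8 RPKM and RiboMinus embryos had 43.2, 41.5 and 71.9 RPKM. CB4856 worms had 34.6, 33.8 and 34.1 RPKM, against 37.2, 37.6 and 39.5 RPKM in maternal-strain worms. In high-purity sperm it was the lowest of the 7, at 28.8 RPKM, and fog-2 and low-purity sperm had 40.8 and 33.9 RPKM.

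The worms of the 2 strains were compared in 1 limma fit of log2(RPKM + 1) over all 4 replicated groups and 11394 features. A gene was called at a Benjamini-Hochberg adjusted p under 0.05 and a log2 difference of at least 1 in size. In CB4856 worms 5 of the 7 genes rose over maternal-strain worms, where 13.5% of all features tested were called higher, 1.67% lower and 15.2% in either direction. However, spe-4, spe-10, spe-26 and fer-1 passed the filter on low values, 1 RPKM in at least 3 libraries, only through the CB4856 worms, so this count is a description. The log2 difference of spe-15 was 2.68 ± 0.18 (SE, adjusted p = 6.3e-05 by limma, n = 2 samples each), the largest of the 7, and its group means were 15.6 ± 0.5 RPKM in CB4856 worms, against 1.60 ± 0.03 RPKM in maternal-strain worms (SD, n = 2 each). For spe-26, spe-10, fer-1 and spe-4 the log2 differences were 2.40, 2.28, 1.98 and 1.95, with adjusted p by limma between 3.4e-07 and 1.6e-06. With quantile normalization spe-4 and fer-1 stood at 0.87 and 0.89, and with a pseudocount of 5 RPKM spe-4, spe-10 and fer-1 stood at 0.69, 0.84 and 0.70, so these lost their calls there. Since 1 RPKM is added before the logarithm, these values understate the change of low genes.

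Ratios of pooled read pairs give the size without that addition, with intervals that cover counting error only. Relative to maternal-strain worms, CB4856 worms held 166 times as much spe-10 mRNA relative to all reads (95% interval 56.6 to 808), 46 times as much fer-1 (34.2 to 63.3) and 34.0 times as much spe-4 (20.3 to 61.8). The ratios were 23.1 for spe-26 (17.1 to 31.7) and 9.94 for spe-15 (9.15 to 10.8). The ratio for spe-15 was the smallest of the 5, the gene with the highest level in maternal-strain worms. The sum of the 14 sperm markers differed in the same direction, by 149 times. Of the markers of other cells that were tested, 2 of 3 of the male soma, 2 of 5 of cuticle and hypodermis, 1 of 7 of muscle and 1 of 5 of neurons were called higher in CB4856 worms, and 0 of these lists' genes lower. Of 12 markers of oocytes and the female germline and 8 of intestine and yolk, 0 were called in either direction. The oocyte markers summed to 9722 to 9913 RPKM in CB4856 worms, against 12403 to 12589 RPKM in maternal-strain worms. The intestine and yolk markers summed to 17765 to 17851 RPKM in CB4856 worms, against 15617 to 15709 RPKM in maternal-strain worms. With median centring muscle and neurons had 0 called, and with quantile normalization neurons had 0 higher and 1 lower. The summed male soma markers were 34.4 to 36.4 RPKM in CB4856 worms, against 21.5 to 25.1 RPKM in maternal-strain worms. Most of both sums was swm-1, with means of 26.4 and 23.6 RPKM. The means of mab-3 were 5.44 and 0.262 RPKM, of cwp-1 3.26 and 0, of pkd-2 0.327 and 0.0152, and of lov-1 0.123 and 0.0242. The 2 called, cwp-1 and mab-3, passed the filter only through the CB4856 worms. The part of cell content in the differences of the organelle genes was not tested.

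Neither spe-5 nor spe-39 passed the test between worm strains. The log2 difference of spe-5 was 0.60 (95% interval -0.14 to 1.34, adjusted p = 0.25 by limma), from means of 16.6 ± 0.02 RPKM in CB4856 worms, against 10.6 ± 0.06 RPKM in maternal-strain worms (SD, n = 2 each). That of spe-39 was -0.17 (-0.84 to 0.51, adjusted p = 0.79 by limma). Its means were 34.2 ± 0.08 RPKM in CB4856 worms, against 38.5 ± 1.5 RPKM in maternal-strain worms. The fit takes 1 spread per gene over all 4 replicated groups, so the spread of embryos enters these intervals. Pooled read pairs gave a ratio of CB4856 over maternal-strain worms of 1.56 for spe-5 (95% interval 1.47 to 1.66, counting error only). For spe-39 the ratio was 0.879 (0.851 to 0.908).

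**Figure D2:**
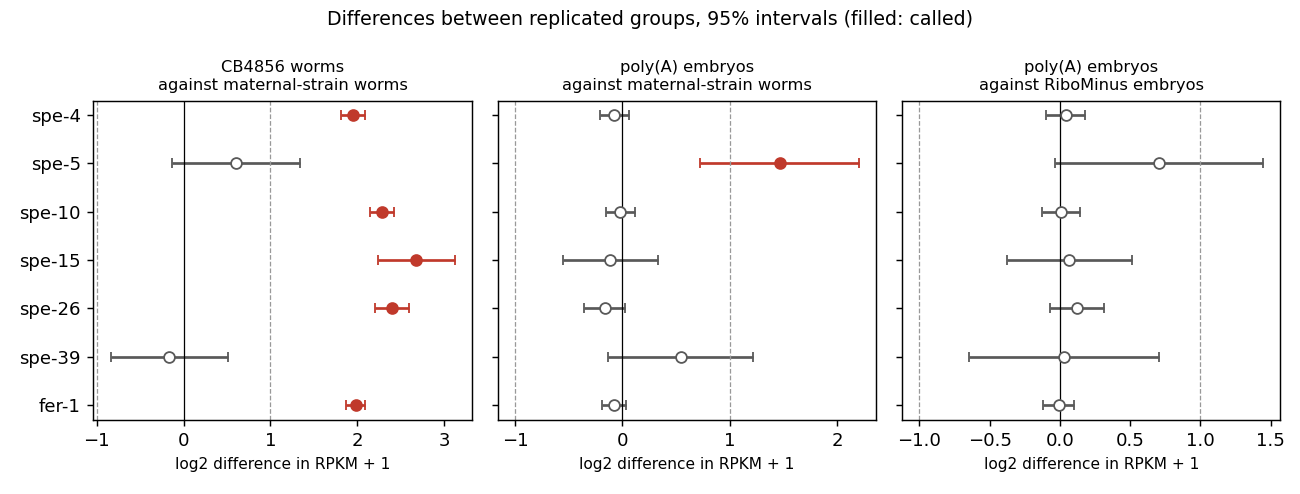
Log2 difference in RPKM + 1 of each organelle gene, first-named minus second-named group, for 3 comparisons with n = 2 samples a group; points are limma estimates, bars their 95% intervals, and filled points passed the adjusted p and the dashed line at a size of 1. The 5 sperm-pattern genes lie at 1.95 to 2.68 in the panel of CB4856 against maternal-strain worms, and spe-5 at 1.47 in that of poly(A) embryos against maternal-strain worms.

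Poly(A) embryos were set against maternal-strain worms in the same fit. This compares shares of mRNA in embryos and in whole worms, and not embryos with the oocytes they came from. Here 1 of the 7 genes, spe-5, was called higher and 0 lower, where 30.5% of all features were called higher, 24.5% lower and 55% in either direction. The log2 difference of spe-5 was 1.47 ± 0.30 (SE, adjusted p = 0.0057 by limma), from means of 32.2 ± 12.6 RPKM in poly(A) embryos and 10.6 ± 0.06 RPKM in maternal-strain worms (SD, n = 2 each); with quantile normalization it was 0.93 and not called. For spe-39 the log2 difference was 0.54 (95% interval -0.13 to 1.22, adjusted p = 0.13 by limma), from means of 56.8 ± 8.6 RPKM in poly(A) embryos and 38.5 ± 1.5 RPKM in maternal-strain worms. The other 5 genes had log2 differences between -0.16 and -0.02, and none had an adjusted p below 0.11. Their pooled read pairs gave a ratio of embryos over maternal-strain worms of 0.849 for spe-15 (95% interval 0.766 to 0.942, counting error only), 0.575 for spe-26 (0.373 to 0.886), 0.392 for spe-4 (0.157 to 0.941) and 0.224 for fer-1 (0.121 to 0.397). For spe-10, with 2 reads against 6, the ratio was 0.190 with an interval of 0.0036 to 2.36. Poly(A) embryos and CB4856 worms both contrast with the same maternal-strain libraries, so the pair of comparisons is not independent. In the same comparison 8 of 8 intestine and yolk markers and 7 of 7 muscle markers were called lower in poly(A) embryos than in maternal-strain worms, with median log2 differences of -8.0 and -6.18; with quantile normalization 6 of the 7 muscle markers were. The part of these tissues in the differences of the organelle genes and of their relatives was not tested.

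Between poly(A) and RiboMinus embryos 0 of the 7 genes were called by limma, and 0 had an unadjusted p under 0.05, where 11.9% of features were called higher after poly(A) selection, 8.37% lower and 20.3% in either direction. The widest difference was that of spe-5, 0.71 on the log2 scale (95% interval -0.03 to 1.45, adjusted p = 0.13 by limma). Without poly(A) replicate 3 it was 1.10 with an adjusted p of 0.014, and was called. For spe-39 the difference was 0.03 (-0.64 to 0.71). Of the 5 genes of the sperm pattern, all but spe-15 were at 0 in RiboMinus replicates 1 and 2, so a difference was not detectable at this depth.

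Set against the single high-purity sperm library, the embryo mean was a small part of the sperm level for the same 5 genes. As a percentage of the RPKM in high-purity sperm, poly(A) embryos held 0.819% of spe-15, 0.128% of spe-26, 0.0524% of fer-1, 0.0195% of spe-4 and 0.0104% of spe-10. For spe-5 the embryos held 82.8%, and for spe-39 they held 197%; with median centring spe-5 was higher in embryos, by 0.73 on the log2 scale, against -0.26 without it. In log2(RPKM + 1), 5 of the 7 genes were lower in embryos by at least 1, as were 50% of 14091 features with 1 RPKM in either, while 24.7% were higher and 74.7% passed in either direction. Of these 5, all but spe-15 passed that filter through sperm alone. With 1 sperm library there is no test, and RPKM is relative to each library's own total, so these percentages compare shares of mRNA and not molecules per cell.

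Between sperm libraries, none of the 7 genes differed by 1 or more in log2(RPKM + 1). For high-purity against low-purity CB4856 sperm, 23.6% of 14645 features did so in either direction, 9.39% higher and 14.2% lower. The genes did not move as 1 group: high-purity sperm held 1.77 times as much spe-4, 1.53 times as much spe-10 and 1.44 times as much spe-5 as low-purity sperm, but 1.10 times as much spe-26, 0.852 times as much spe-39, 0.817 times as much fer-1 and 0.765 times as much spe-15. The sum of the 14 sperm markers was 2.78 times as high in high-purity sperm, and the 8 intestine and yolk markers summed to 836 RPKM in high-purity and 3042 RPKM in low-purity sperm. The 7 muscle markers summed to 1686 RPKM in high-purity and 1116 RPKM in low-purity sperm, and most of both sums was mlc-2 and pat-10. The muscle markers unc-54 and unc-15 went the other way. Of these, unc-15 had 65.4 RPKM in high-purity and 118 RPKM in low-purity sperm. The 5 male soma markers summed to 243 RPKM in high-purity and 96.4 RPKM in low-purity sperm. Most of both sums was cwp-1, at 197 and 49.9 RPKM, while mab-3 went the other way, at 8.67 and 23.0 RPKM. The larger ratios of the organelle genes belonged to the shorter genes, for which 1 read makes more RPKM. In poly(A) embryo replicate 1, 1 read was 0.0073 RPKM for spe-10, 0.0057 for spe-4 and 0.0057 for spe-5. It was 0.0049 for spe-26, 0.0047 for spe-39, 0.0023 for spe-15 and 0.0014 for fer-1. The part of other cells and of gene length in the ratios of the organelle genes was not tested. For fog-2 against high-purity sperm, 29.5% of 15146 features differed by 1 or more, 19.5% higher and 9.94% lower in fog-2 sperm. The fog-2 library had 1.53 times as much fer-1, 1.42 times as much spe-39 and 1.28 times as much spe-26, and 0.746 times as much spe-4. These ratios come from 1 library each.

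Levels in high-purity sperm relative to whole worms also differed by gene. High-purity sperm over CB4856 worms gave 47.3 times for spe-4, 18 times for spe-26, 14.6 times for spe-10, 11.2 times for spe-15 and 9.70 times for fer-1. The sum of the sperm markers gave 14.5 times. The ratio was 2.35 for spe-5 and 0.844 for spe-39.

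Each gene was then placed beside the genes most like it in family or complex. Between worm strains 13.5% of all features tested were called higher and 1.67% lower. In embryos against maternal-strain worms 30.5% were called higher and 24.5% lower. Calls of the relatives below stand beside these shares. The relatives of spe-4 are the presenilins sel-12 and hop-1 and the other gamma-secretase subunits, aph-1, aph-2 and pen-2. While spe-4 had a mean of 0.0294 RPKM in poly(A) embryos and 151 RPKM in high-purity sperm, hop-1 had 190 RPKM in the embryos and 24.4 RPKM in the sperm, and sel-12 had 30.7 RPKM in the embryos and 3.08 RPKM in the sperm. Of the 5 relatives, 0 were called by limma between worm strains and 0 had an unadjusted p under 0.05, with a median log2 difference of -0.26 beside 0.04 over all features; with quantile normalization 1 was called lower in CB4856 worms. Against maternal-strain worms 4 were called higher in embryos, with a median of 1.95 beside 0.03 over all features; pen-2 had the largest difference, 4.19, followed by aph-1 at 2.15 and hop-1 at 1.95. With quantile normalization hop-1 lost its call and 3 remained called.

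The relatives of spe-5 are 19 other V-ATPase subunits. Its paralog vha-12 had means of 190 RPKM in poly(A) embryos, 637 RPKM in CB4856 worms, 577 RPKM in maternal-strain worms and 59.7 RPKM in high-purity sperm. In embryos the B-subunit genes moved apart: vha-12 fell by 1.61 on the log2 scale relative to maternal-strain worms (adjusted p = 5.3e-04 by limma) where spe-5 was called higher. Of the 19, 0 were called by limma between worm strains and 1 had an unadjusted p under 0.05, with a median of 0.10, or -0.13 with median centring. In embryos 4 were called higher and 4 lower than in maternal-strain worms, beside 30.5% and 24.5% of all features. The median of the 19 was 0.28, beside 0.03 over all features. The largest differences were those of vha-6 at -6.02 and vha-5 at -3.78, both membrane a subunits, and of vha-9 at 3.03. With quantile normalization the count was 2 higher and 7 lower, and the median was -0.46.

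Among 13 other DHHC genes in the table, some were also high in sperm and low in embryos. In CB4856 worms, dhhc-12 and dhhc-5, 2 of the 11 tested, were called higher than in maternal-strain worms, by 1.44 and 1.39 on the log2 scale, and 0 lower; with quantile normalization neither was called. Both passed the filter only through the CB4856 worms, so this count is a description, beside 13.5% of all features called higher. High-purity sperm held 113 RPKM of dhhc-12, 28.0 RPKM of dhhc-5, which is the sperm gene spe-21, and 36.4 RPKM of dhhc-13, beside 57.9 RPKM of spe-10. Poly(A) embryos held 0.0657, 0 and 0 RPKM of these 3, and 79.2 RPKM of dhhc-6 and 86.6 RPKM of dhhc-3. In embryos 4 of the 11 were called higher and 1 lower than in maternal-strain worms, beside 30.5% and 24.5% of all features. The largest differences were those of dhhc-1 at 2.10, dhhc-9 at 1.90 and dhhc-6 at 1.51. With quantile normalization dhhc-6 lost its call, and 2 were called higher and 1 lower. That 1 was another gene than the 1 called lower here. With median centring 4 were called higher and 0 lower.

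Of the other unconventional myosins, 8 were in the table and 6 tested. Their highest level in high-purity sperm was 24.5 RPKM, that of hum-2, beside 176 RPKM of spe-15. Between worm strains 0 were called by limma and 3 had an unadjusted p under 0.05, with a median of 0.20 beside 0.04 over all features, or -0.15 with quantile normalization. In embryos 4 fell relative to maternal-strain worms, led by hum-5 at -2.45, hum-7 at -2.01 and hum-4 at -1.80, where spe-15 was not called. With quantile normalization 3 were called lower, among them 1 not called lower here. Both hum-4 and the 1 of the 4 not named lost their calls there.

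Of the kelch genes listed, 4 were found. One of them, kel-10, had the same pattern as spe-26: 0.0292 RPKM in poly(A) embryos, 15.6 RPKM in CB4856 worms, 0.182 RPKM in maternal-strain worms and 214 RPKM in high-purity sperm. It was called higher in CB4856 worms than in maternal-strain worms, by 3.81 on the log2 scale (adjusted p = 2.8e-07 by limma), the 1 call among the 4, and passed the filter only through those worms; with quantile normalization another was called lower. In embryos kel-20 and kel-3 were called higher than in maternal-strain worms, by 2.04 and 1.88.

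For spe-39 the relatives are the 8 subunits of the HOPS and CORVET tethering complexes. Of these 0 were called by limma between worm strains and 1 had an unadjusted p under 0.05, with a median of -0.34; with quantile normalization 3 were called lower in CB4856 worms. In embryos vps-33.2, whose human counterpart VPS33B binds the counterpart of SPE-39, was the 1 called higher than in maternal-strain worms, by 1.80. Over all features 30.5% were called higher. With quantile normalization vps-33.2 lost its call, and with median centring 2 were called. The means of vps-33.2 were 57.1 RPKM in poly(A) embryos and 15.7 RPKM in maternal-strain worms. It had 34.1 RPKM in high-purity sperm, beside the 28.8 RPKM of spe-39.

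**Figure D3:**
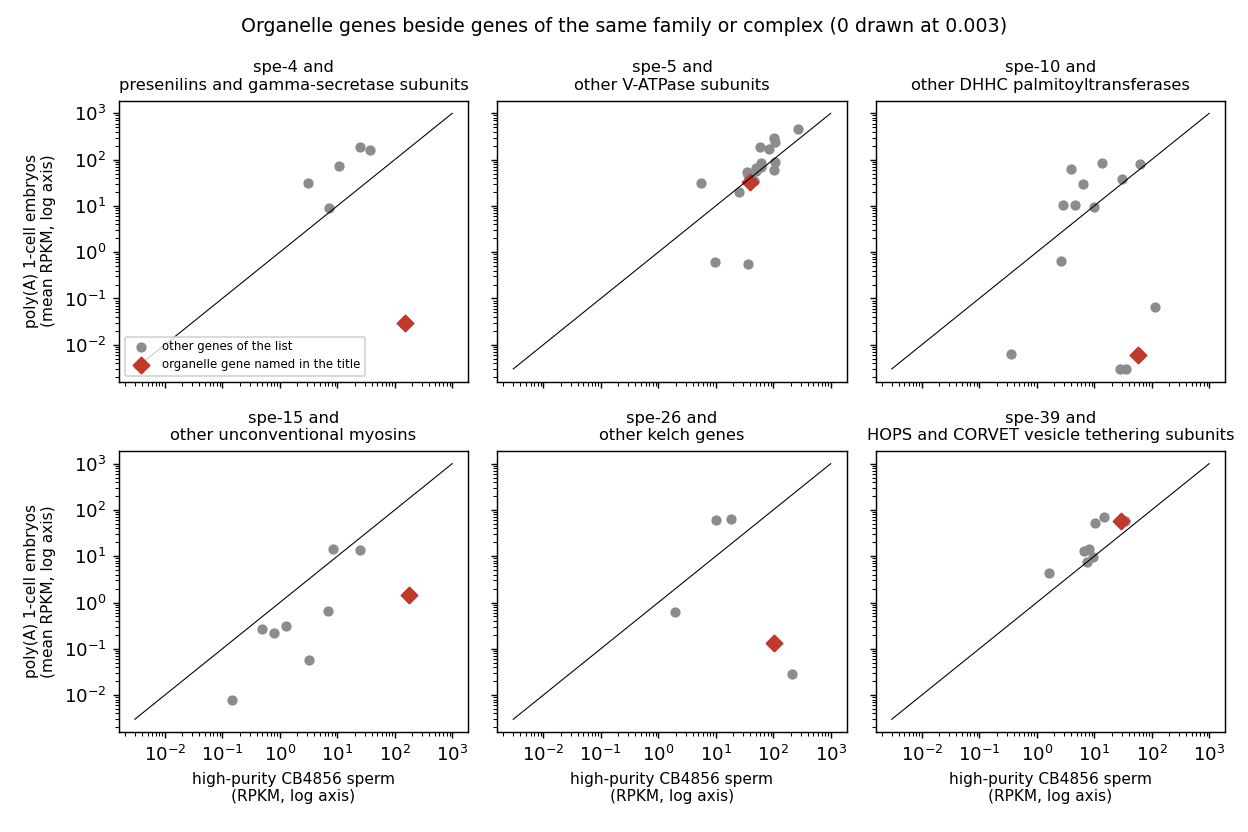
Mean RPKM in poly(A) embryos against RPKM in the high-purity sperm library, both on log axes, for an organelle gene (red diamond) and the other genes of its family or complex (grey points), with the line of equal values; 0 is drawn at 0.003. spe-4, spe-10, spe-15 and spe-26 lie below the line at 151, 57.9, 176 and 102 RPKM in sperm, while spe-5 and spe-39 lie near it among their relatives.

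Between poly(A) and RiboMinus embryos some of these relatives were called, beside 20.3% of all features, 11.9% higher and 8.37% lower. Higher after poly(A) selection were pen-2 at 1.62, the V-ATPase genes vha-17 at 1.94 and vha-4 at 1.45, and kel-20 and kel-3, both at 1.21. Lower were vha-3 at -1.30, dhhc-8 at -1.87, and vps-41, vps-18 and vps-8 at -1.53, -1.37 and -1.06. In all, 3 V-ATPase genes were higher and 3 lower. With quantile normalization vha-4, vps-18 and vps-8 lost their calls, as did V-ATPase genes not named here, and with median centring vps-8 did. With quantile normalization 1 V-ATPase gene was called higher and 3 lower, and not all of these 3 were called lower without it.

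Other genes named for sperm defects gave a wider reference. The table held 22 of these, of which 13 were tested. In CB4856 worms 11 were called higher than in maternal-strain worms, beside 13.5% of all features. The median log2 difference of the 13 was 1.76, beside 0.04 over all features. Of the 11, 9 passed the filter only through the CB4856 worms. With quantile normalization 6 were called. Among those called were spe-47, at 2.62, and the paternal-effect gene spe-11, at 2.49. In embryos 1 of the 13, spe-6, a casein kinase gene, was called higher than in maternal-strain worms, by 1.68, beside 30.5% of all features. Its means were 5.02 RPKM in poly(A) embryos and 0.872 RPKM in maternal-strain worms. The genes spe-44, a transcription factor gene of spermatogenesis, and spe-48 resembled spe-5 and spe-39 in having 22.3 and 48.4 RPKM in poly(A) embryos.

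The likeness of profiles over the 7 conditions was measured by the Euclidean distance between mean-centred log2(RPKM + 1) profiles, among 12079 genes with at least 5 RPKM in 1 condition. It is a description, since all genes share the same libraries. The closest pair within the set was spe-15 and spe-26, at a distance of 0.59, followed by fer-1 and spe-10 at 0.81 and by spe-26 and spe-4 at 0.89. The distance of spe-39 and spe-5 was 1.94, and that of spe-39 and spe-4, the farthest pair, was 9.07. The 3 nearest genes to spe-4 were F31E8.5, Y40H4A.2 and T02E1.6, at 0.21 to 0.28. Those nearest to spe-10 were ptp-5.2, Y51H7C.9 and F21A3.4 at 0.30 to 0.34, and those nearest to spe-15 were wht-8, acdh-5 and F46A8.3 at 0.43 to 0.53. Next to spe-26 came F40F12.3, W03F11.4 and clc-4 at 0.30 to 0.35, and next to fer-1 came F15D3.4, ZC204.6 and Y110A2AL.6 at 0.33 to 0.43. All of these were below 1 RPKM in embryos and at 26 RPKM or more in every sperm library. The nearest to spe-39 were eif-3.C, a translation initiation factor subunit, alx-1 and noca-1 at 0.23 to 0.29, and the nearest to spe-5 were the chaperone gene hsp-4, psr-1 and C44B7.7 at 0.45 to 0.52.

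Small RNAs antisense to mRNAs in this worm are mostly made by RNA-dependent RNA polymerases on the mRNA itself and are loaded onto Argonaute proteins. Some Argonautes silence their targets and another licenses germline genes. The libraries were treated with a polyphosphatase so that such small RNAs could be cloned. Values are in RPM, reads scaled to the sum over all small RNA class tables, of which each library held 2.23 to 15.3 M reads. Each library is a single sample, and intervals are 95% Poisson intervals that cover counting error only.

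Antisense small RNAs to spe-10 and spe-4 were higher in sperm and in CB4856 worms than in the other libraries. For spe-10, fog-2 sperm held 76.9 RPM (71.4 to 82.7, 734 reads), against 0.123 RPM in oocytes, which is 1 read. Hybrid embryos and TX189 embryos also had 1 read each. CB4856 worms had 96.8 RPM from 216 reads, against 5.21 RPM from 13 reads in maternal-strain worms. For spe-4, fog-2 sperm held 56.5 RPM (51.8 to 61.4, 539 reads), against 0.247 RPM from 2 reads in oocytes. Hybrid embryos had 1 read and TX189 embryos 10 reads, and CB4856 worms had 55.6 RPM, against 1.20 RPM from 3 reads in maternal-strain worms. The order of sperm over oocyte was the same for fer-1, but smaller, with 10.6 RPM in sperm (8.62 to 12.9, 101 reads) and 2.10 RPM in oocytes (1.22 to 3.36, 17 reads). Hybrid embryos held 0 antisense reads of fer-1, where 3 reads would have been 0.558 RPM, and TX189 embryos held 16. CB4856 worms had 11.6 RPM of fer-1, against 0.801 RPM from 2 reads in maternal-strain worms.

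The myosin gene spe-15 went the other way. Its antisense level was 15.2 RPM in fog-2 sperm (12.8 to 17.9, 145 reads), against 44.4 RPM in oocytes (39.96 to 49.3, 360 reads). It was 22.3 RPM in hybrid embryos (18.5 to 26.7, 120 reads) and 67.8 RPM in TX189 embryos (63.7 to 72.1, 1039 reads), the highest of the 7 genes there. CB4856 worms had 11.2 RPM from 25 reads, against 2.80 RPM from 7 reads in maternal-strain worms. Its mRNA level in hybrid embryos was 1.03 to 1.82 RPKM after poly(A) selection.

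Sense reads of spe-15 had the opposite distribution. They reached 61.1 RPM in fog-2 sperm (56.2 to 66.2, 583 reads), above the sense level of 99.7% of loci, against 3.58 RPM from 29 reads in oocytes. Antisense reads made up 19.9% of its exon reads in fog-2 sperm and 27.5% in CB4856 worms, but 85.1% in hybrid embryos, 96.8% in TX189 embryos and 92.5% in oocytes. Over all loci the antisense share was 95.4% in fog-2 sperm and 74.3% in CB4856 worms. Among the other genes fer-1 and spe-26 also had low antisense shares in sperm, 47.9% and 26.9%, while spe-10 and spe-39 had 96.1% and 97.0%. Introns of spe-15 carried reads too, 136 sense and 56 antisense in fog-2 sperm; per the RefSeq annotation, a tRNA gene, an ncRNA gene and gst-25 lie within or across the bounds of spe-15. How far these or mRNA fragments enter the reads of spe-15 was not tested.

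The antisense reads of spe-39 were spread more evenly. They were 20.1 RPM in fog-2 sperm (17.4 to 23.2), 35.5 RPM in hybrid embryos (30.7 to 40.9), 33.6 RPM in TX189 embryos (30.8 to 36.6) and 45.2 RPM in oocytes (40.7 to 50.04). CB4856 worms had 67.2 RPM, against 64.9 RPM in maternal-strain worms. For spe-5 the values were 7.86 RPM in fog-2 sperm, 4.84 RPM in hybrid embryos, 5.22 RPM in TX189 embryos and 5.92 RPM in oocytes. The CB4856 worm library held 11.6 RPM from 26 reads, against 1.60 RPM from 4 reads in the maternal-strain worm library. With 18 antisense reads in fog-2 sperm, 17 in CB4856 worms and 1.5 or fewer in each other library, spe-26 was too low for a comparison; fractions arise where reads map to several places.

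**Figure D4:**
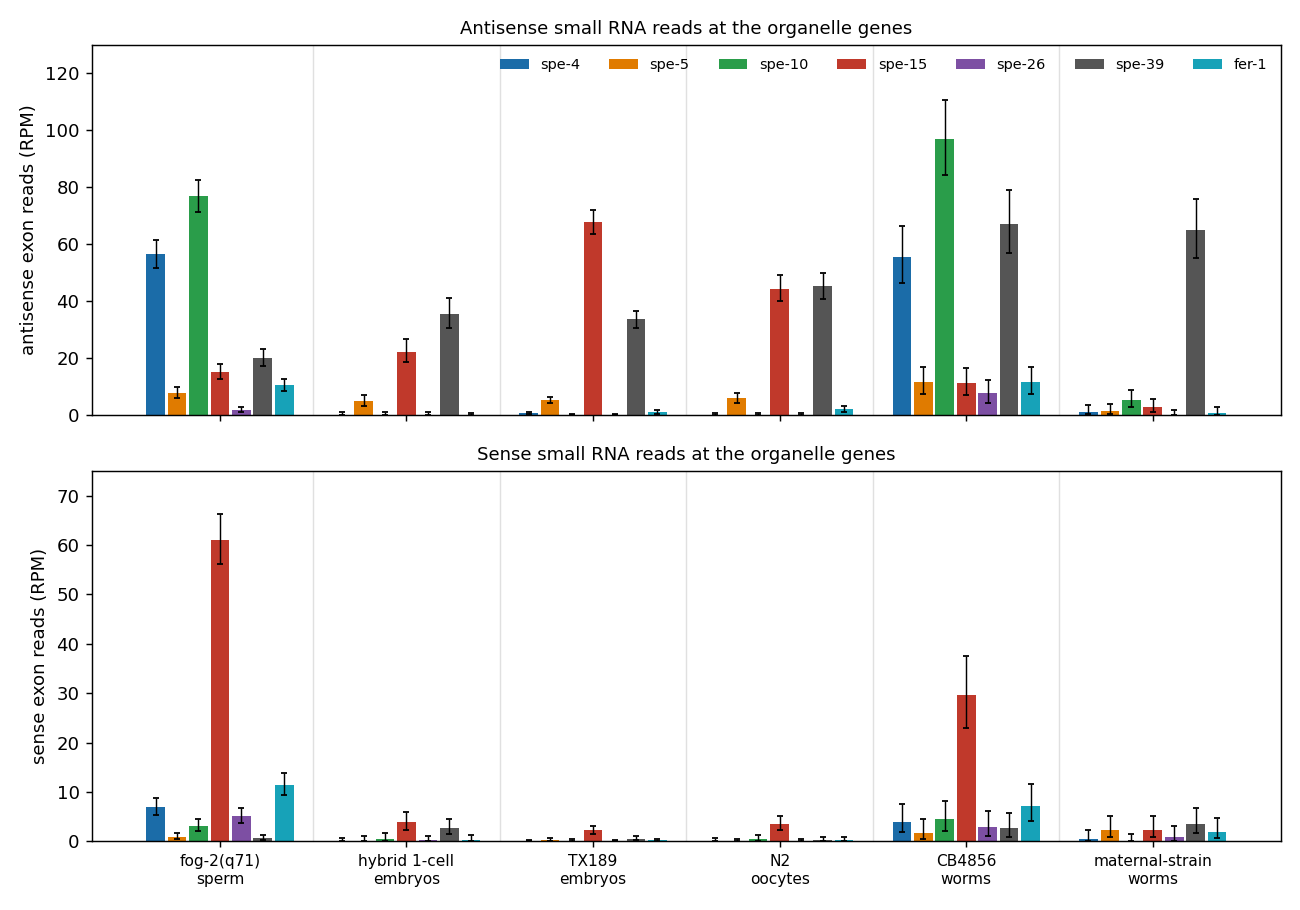
Antisense (top) and sense (bottom) small RNA reads over exons of the 7 organelle genes, in RPM, in 6 single libraries; bars are the values and whiskers 95% Poisson intervals, which cover counting error only. In fog-2 sperm antisense reads of spe-10 and spe-4 stand at 76.9 and 56.5 RPM and sense reads of spe-15 at 61.1 RPM, while in oocytes and embryos the antisense bars of spe-15 and spe-39 are the tallest.

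A ratio of at least 4 in RPM with at least 20 reads in the higher library was used to place these values among all loci. In fog-2 sperm against oocytes, 3 of the 6 organelle genes with enough reads were higher by that rule, spe-4, spe-10 and fer-1, and 0 were lower, where 16.4% of 10195 loci were higher, 36.9% lower and 53.3% either. All 3 had enough reads only in sperm, so this count is a description. The ratio was 229 for spe-4 (95% interval 63.0 to 1894) and 5.04 for fer-1 (2.999 to 8.996), and 623 for spe-10 on a single oocyte read (111 to 24642). For spe-15 and spe-39, sperm over oocytes gave 0.342 (0.280 to 0.416) and 0.445 (0.372 to 0.532), and for spe-5 the ratio was 1.33 (0.911 to 1.95).

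In hybrid embryos against oocytes, 0 of the 3 genes with enough reads passed the rule, where 2.15% of 8837 loci were higher, 7.56% lower and 9.71% either. Embryos over oocytes gave 0.502 for spe-15 (0.405 to 0.619), 0.787 for spe-39 (0.657 to 0.940) and 0.817 for spe-5 (0.486 to 1.34). In CB4856 worms against maternal-strain worms, 4 of 6 passed the rule, spe-4, spe-5, spe-10 and fer-1, all higher, where 19.7% of 5535 loci were higher, 4.52% lower and 24.2% either. These 4 also had 20 reads only in CB4856 worms. The ratios were 46.2 for spe-4 (15.5 to 227), 18.6 for spe-10 (10.6 to 35.5), 14.5 for fer-1 (3.64 to 126) and 7.27 for spe-5 (2.52 to 28.7). For spe-39 the ratio was 1.04 (0.824 to 1.30). The summed mRNA of the sperm markers also differed between worms of these strains, and its part was not tested.

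Position bears on 3 of the mRNA values, since the library protocol names no step that keeps strand. Per the RefSeq annotation, spe-5 overlaps ift-20, spe-15 overlaps gst-25 and spe-26 overlaps R10H10.3. The ift-20 and gst-25 means were below 1 RPKM in all 7 conditions. R10H10.3 had 0.139 RPKM in poly(A) embryos, 25.9 RPKM in CB4856 worms, 29.1 RPKM in maternal-strain worms and 18.2 RPKM in high-purity sperm. It was above spe-26 in both worm groups and below it in that sperm library. In poly(A) embryos it lay within the range of the spe-26 libraries. It lacked the difference between worm strains that spe-26 had.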

How the data were processed

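Poly(A) or RiboMinus mRNA libraries and small RNA libraries of embryos, worms, sperm and oocytes were analysed. Reads were aligned with BWA, version not given, per the submitters' processing notes; build and annotation are not given in the sources used here. For mRNA the authors deposited RPKM per gene, and missing values were read as 0. For small RNA the authors deposited a signal per locus and class. In each library nearly all its values are whole multiples of 1 number, so dividing by that number gave reads, which were scaled to the sum over 8 class tables. Oocyte and worm columns carry no replicate number and were matched by name; another 8 columns a table could not be matched and were left out.

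The steps between low RPKM values gave whole reads for 16607 of 16865 features. Even counts prevailed (56.1% to 80.5% of features with 1 to 10 reads), so reads were treated as pairs counted singly; replicates 1 and 2 had a mean dispersion of 1.92 to 2.12, where pairs give 2. They were averaged, leaving 2 samples a group. The p-values measure the spread between these, taken as 1 value per gene over all 4 groups, so embryo spread enters the worm comparison. Since no deposited table holds counts, limma 3.58.1 (R 4.3.3) was used with a trend on log2(RPKM + 1); it was tested on simulated data. Named genes were the 7 genes, at most the 3 called genes with the largest difference in each list and comparison, relatives for level, and the 3 nearest profiles. One result that this rule would name is not reported here. A few relatives (vha-12, dhhc-3, dhhc-13, sel-12, hum-2, spe-44, spe-48), some muscle and male soma markers, and overlapping genes were named for their levels, after these were seen. Alternatives were pseudocounts of 0.1 and 5 RPKM, other filters, quantile and median scaling, separate libraries, a replicate block and left-out samples; the scalings were applied to the gene lists after the data were seen. The genes and lists were chosen with earlier results of these data known. Gene sequences were not used here.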

Additional observations from a re-analysis of the deposited data

How the results depend on the processing

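Of the 5 genes called higher in CB4856 worms than in maternal-strain worms, 2 were called with a pseudocount of 5 RPKM, 2 of 4 tested with a filter of 5 RPKM and 3 with quantile normalization; spe-15 and spe-26 were called under all of these. With the pseudocount of 5, spe-4, spe-10 and fer-1 stood at 0.69, 0.84 and 0.70, below the size of 1; with quantile normalization spe-4 and fer-1 stood at 0.87 and 0.89. Over all features the count was 696 with the pseudocount of 5 and 861 with the filter of 5 RPKM, where fewer features are tested, against 1727; quantile normalization gave 960 higher and 599 lower, against 1537 and 190, and moved the median of all features to -0.19, as median centring did to -0.20; for embryos against maternal-strain worms these gave 0.14 and 0.22, against 0.03. In embryos against maternal-strain worms, 0 of the 7 were called with quantile normalization, against 1; spe-5 was at 0.93. In poly(A) against RiboMinus embryos the number called was 0 to 1 when samples were left out, 1 without poly(A) replicate 3. Leaving out a sample changed no other call of the 7. The replicate block gave 1741, 6311 and 2299 calls over all features in the 3 comparisons in the order of the report, against 1727, 6270 and 2315, and changed no call of the 7; deviations of same-numbered samples correlated at 0.084 to 0.71 between groups, and nothing in the labels pairs them. The cause of these changes was not tested, except where the setting itself tests fewer features.

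Only differences that were not called changed sign. In embryos against maternal-strain worms, quantile normalization gave 0.10 for spe-4, 0.14 for spe-10, 0.71 for spe-15, 0.31 for spe-26, -0.36 for spe-39 and 0.12 for fer-1. Median centring gave 0.11 for spe-4, 0.16 for spe-10, 0.071 for spe-15, 0.018 for spe-26 and 0.10 for fer-1. When samples were left out, spe-10 ranged over -0.043 to 0.0086 and spe-15 over -0.34 to 0.12. In poly(A) against RiboMinus embryos, quantile normalization gave -0.084 for spe-10, -0.11 for spe-15 and -0.10 for spe-39, median centring gave 0.078 for fer-1, and separate libraries gave 0.00073 for fer-1. With samples left out, spe-15 ranged over -0.16 to 0.29, spe-39 over -0.34 to 0.41 and fer-1 over -0.042 to 0.024. Under median centring spe-39 and spe-5 were 1.95 and 0.73 higher in embryos than in high-purity sperm. Small RNA values as deposited, in which 1 sperm read is written as 1854 and 1 oocyte read as 31.7, put sperm over oocytes at 4.56 to 13.8 on the log2 scale for all 7 genes, by that construction; scaling to antisense exon reads put spe-15 past the ratio of 4 in CB4856 worms against maternal-strain worms, at 2.24 on the log2 scale, and turned spe-39 in hybrid embryos against oocytes to 0.22.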
